A study of Mus musculus with 4 samples.

Results

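The 9 genes Pf4, Ppbp, Gp1ba, Gp1bb, Gp9, Gp6, Itga2b, Itgb3 and Treml1 were followed in cells sorted from the periosteum of mouse femora, the cellular sheath of the bone. They were chosen by name as genes of platelets and of megakaryocytes, the marrow cells that shed platelets, and all 9 were among the 47643 genes of the deposited table. The TdTomato-positive group held 2 libraries and the TdTomato-negative group 2 libraries, one of each from each of 2 collections. All donors were double heterozygous mice with 1 Sox9CreErt2 driver allele and 1 Td-Tomato reporter allele, all were given tamoxifen (100 µL of a 20 mg/mL solution, 3 times at intervals of 48 h), and femora without a fracture were used 2 weeks after the last dose. The groups therefore shared genotype and treatment and differed in the colour on which they were sorted. Red cells are those in which the Sox9 promoter was active when tamoxifen was present, or progeny of such cells, so the label records a history and not current Sox9 expression. Femora of 9 mice (18 bones) were pooled over the collections into about 10000 cells per colour. The spread between libraries is thus one between pools and may in part be technical.

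Platelets are cell fragments without a nucleus that carry RNA inherited from the megakaryocyte. They adhere to damaged vessel walls through a receptor for von Willebrand factor, made of the glycoproteins Ib alpha, Ib beta, IX and V, and through the collagen receptor glycoprotein VI. They then release granules that hold chemokines, and bind each other through the fibrinogen receptor, the integrin of alpha IIb and beta 3. Bone marrow, the site of platelet production, lies on the other side of the cortex that the periosteum covers, and bone tissue is perfused with blood.

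The deposited table gives group means and no library columns. The 4 library values of each gene were solved from it and are named by colour and by the depth they imply: 41.6 and 32.0 M reads for TdTomato-positive cells, 17.0 and 74.0 M reads for TdTomato-negative cells. Levels are given as reads, as CPM (reads scaled to the depth of the library) or as RPKM (CPM divided by the kilobases of the genomic span, introns included), unless exons are named. A gene counts as resolved where it could be fixed which value belongs to which library of its group. This was done by whole numbers of reads, or by leaving out an assignment with reads below 0. Of the 9 genes 8 were resolved. For Pf4 the 2 positive values have 2 possible readings, and both are given for its levels. The fits used the reading named with the processing, unless the other assignment is stated. As a check of the sort, all 8 cartilage and bone genes looked at (Sox9, Col2a1, Acan, Comp, Bglap, Col1a1, Sparc, Alpl) had a higher mean in the positive group, 2 of them past the authors' FDR of 0.05.

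Of the 8 resolved genes 7 were read mainly in 1 of the 4 libraries, the exception being Itgb3, which was highest there too but not by far. In the positive library of 41.6 M reads, the 8 resolved genes together had 1491 CPM. They had 40.2 in the other positive library, and 67.0 and 54.0 in the negative libraries of 17.0 and 74.0 M reads. The first library was 37.1-fold above the other positive one, a larger gap than its 22.3-fold and 27.6-fold distance from the negative ones. Without Ppbp, the gene with most reads, the sums of the remaining 7 were 546 and 38.4 CPM in positive cells and 56.1 and 53.2 in negative cells. The positive library of 32.0 M reads thus held less of the 8 resolved genes than either negative library. Its distance from that of 74.0 M reads was small, however (42.2 against 43.1 CPM over the 8 genes once the libraries were rescaled to a median log2 ratio of 0). This order does not hold with Pf4 added. The sum over all 9 genes in that positive library was then 79.5 or 499 CPM, according to the reading. In the negative libraries of 17.0 and 74.0 M reads it was 91.4 and 58.0 CPM. In such bulk samples fewer cells of a type and less RNA per cell cannot be told apart.

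**Figure D1:**
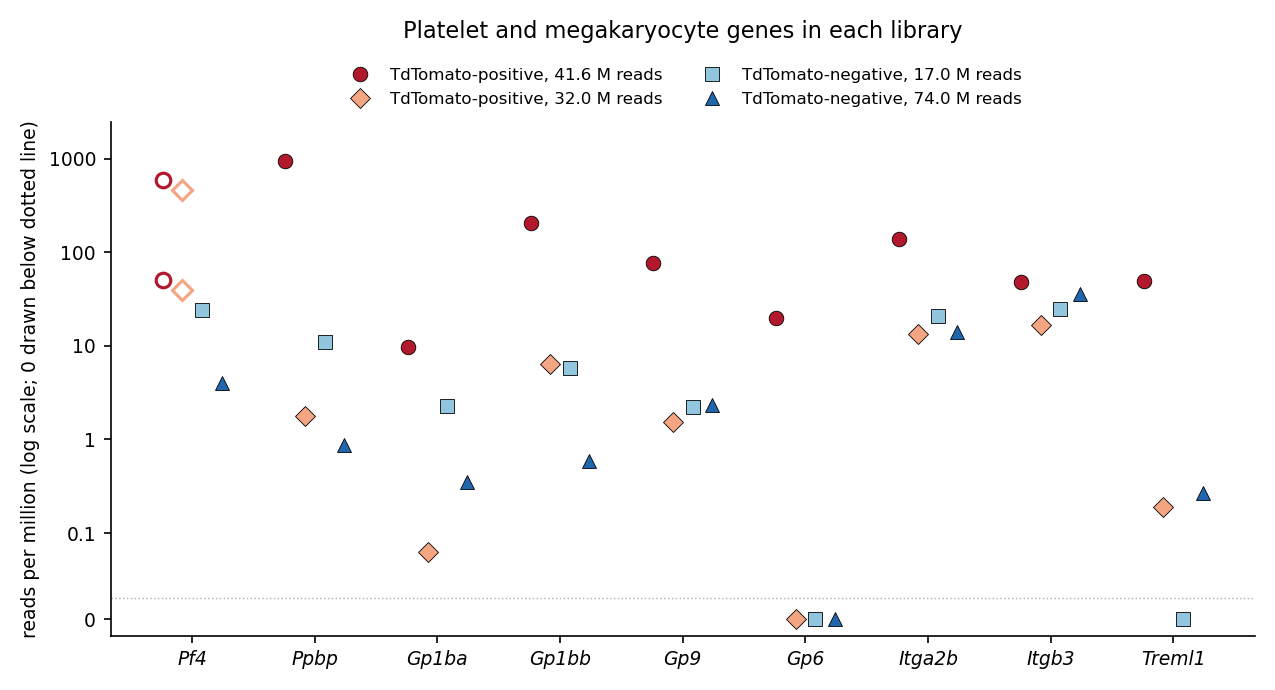
CPM (log axis) of the 9 genes in each library, TdTomato-positive libraries at the left of each gene and negative ones at the right; open symbols are the 2 possible readings of the positive values of Pf4. The filled circles of the positive library of 41.6 M reads lie above every other symbol of their gene, by 1.37-fold for Itgb3 and by 181-fold for Treml1.

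Taken as groups, the positive cells had the higher mean for 8 of the 9 genes, against 17.7% of all genes and 35.9% of those that reached 10 reads in 2 or more libraries, a minimum that 8 of the 9 genes passed and Gp6 did not. No member passed the authors' FDR of 0.05, which 0.0063% of all genes passed in the higher direction. At an unadjusted p below 0.05, 4 members were higher in the authors' deposited table (Pf4, Ppbp, Gp1bb and Treml1), all with the minimum reads. This compares with 0.598% of all genes and 1.58% of genes with the minimum reads. In the lower direction there were 0 members, against 0.296% of all genes. With limma on log2(RPKM + 1), 0 of 17117 genes passed at an adjusted p of 0.05, while 1623 had an unadjusted p below 0.05, of which 0 were members. The median log2 ratio of the deposited means was 3.38 over the members and -0.39 over all genes. The value of -0.39 is also that of the 20960 genes with no read in any library, so it is the zero point of these ratios. Genes with no read or with equal levels thus count as lower, which holds down the shares of 17.7% and 35.9%. By the authors' difference on the natural log scale, put here as log2, 8 of the 9 genes were higher. Its median was 2.19 over the members, -0.04 over all genes and 0.02 over genes with the minimum reads. With 2 libraries a group, an exact two-sided permutation test of a single gene cannot go below 0.333.

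The genes of the von Willebrand factor receptor are shown first by the sequence before their starts, since the 3 members that encode its subunits were each highest in the same library. The 250 bases before the RefSeq start (GRCm38.p6) are given, 5′ to 3′ on the gene's strand. Capitals mark GATA motifs (AGATAA, with T also taken as the first letter and G as the last) and ETS motifs (AGGAAG, with C also taken as the first letter), on either strand; proteins of both families are known regulators of megakaryocyte genes.
Gp1ba, chr11:70638872-70639121, plus strand: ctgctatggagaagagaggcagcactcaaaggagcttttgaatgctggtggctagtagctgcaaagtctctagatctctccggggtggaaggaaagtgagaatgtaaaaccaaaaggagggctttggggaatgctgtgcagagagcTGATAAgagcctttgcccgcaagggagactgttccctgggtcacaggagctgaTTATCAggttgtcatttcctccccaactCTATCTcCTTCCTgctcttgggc
Gp1bb, chr16:18622404-18622653, minus strand: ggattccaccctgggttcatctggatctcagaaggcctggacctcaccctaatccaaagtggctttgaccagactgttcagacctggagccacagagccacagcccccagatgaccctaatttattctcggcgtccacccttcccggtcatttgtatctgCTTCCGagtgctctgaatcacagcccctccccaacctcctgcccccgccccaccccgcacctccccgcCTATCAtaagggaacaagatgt
Gp9, chr6:87777820-87778069, plus strand: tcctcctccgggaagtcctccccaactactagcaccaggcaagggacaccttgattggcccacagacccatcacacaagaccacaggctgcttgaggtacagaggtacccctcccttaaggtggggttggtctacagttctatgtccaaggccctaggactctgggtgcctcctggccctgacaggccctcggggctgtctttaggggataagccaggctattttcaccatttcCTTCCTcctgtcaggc
Gp1ba held 3 GATA motifs, which began 104, 51 and 23 bases before the start, and 1 ETS motif at 16 bases. Gp1bb held an ETS motif at 90 bases and a GATA motif at 22 bases, and Gp9 an ETS motif at 16 bases. RefSeq windows were found for 8 of the 9 genes, the exception being Itgb3. Of these 8, 3 held a GATA motif (Gp1ba, Gp1bb and Gp6), against 26.5% of the 32851 windows of all genes. An ETS motif was in 5 of 8 windows (Pf4, Gp1ba, Gp1bb, Gp9 and Itga2b), against 39.2% of all windows, and both kinds were in 2 of 8, against 9.21%. These matches describe letters and do not show that a factor binds there.

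Gp1bb (ENSMUSG00000050761.3, chromosome 16, 18620319 to 18622403, minus strand, mm10) encodes the beta chain of glycoprotein Ib. It had 97.6 and 3.10 RPKM in the positive libraries of 41.6 and 32.0 M reads, against 2.78 and 0.284 RPKM in the negative libraries of 17.0 and 74.0 M reads. The positive libraries did not overlap the negative ones, but the lower positive value exceeded the higher negative one by only 0.16 on the log2 scale. The first library was 31.5-fold above the next. The authors' deposited means had a log2 ratio of 3.81 (p = 0.00597, FDR = 1.00). In 3 libraries its reads were fractional (206.68, 98.55 and 43.85, against 8468 in the positive library of 41.6 M reads). Sept5, a septin gene on the same strand, overlaps it by 593 bases, so part of the reads of either may have been shared out between them. Sept5 itself had between 362 and 2308 reads in the positive libraries, less than Gp1bb in the highest one but more than Gp1bb in the other. In the negative libraries of 17.0 and 74.0 M reads it had 463 and 2555 reads in the assignment used for the fits, again more than Gp1bb. The lack of overlap for Gp1bb thus rests on low counts that may in part be shared.

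Gp9 (ENSMUSG00000030054.4, chromosome 6, 87778072 to 87779768, plus strand, mm10) encodes glycoprotein IX, which holds the complex together at the surface. Its levels were 45.7 and 0.904 RPKM in positive cells, compared with 1.32 and 1.38 RPKM in negative cells (17.0 and 74.0 M reads). They rest on 3229 and 49 reads in positive cells and on 38 and 173 reads in negative cells. One positive library was thus 33.2-fold above the next and the other was the lowest of the 4. The deposited means gave a log2 ratio of 3.45 in the authors' deposited table, with p = 0.135.

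Gp1ba (ENSMUSG00000050675.7, chromosome 11, 70639122 to 70642036, plus strand, mm10) encodes the alpha chain of glycoprotein Ib, the subunit that binds von Willebrand factor. It was the weakest of the receptor's genes, with 403 and 2 reads in the positive libraries of 41.6 and 32.0 M reads, against 39 and 26 reads in the negative libraries of 17.0 and 74.0 M reads. Its RPKM were 3.32 and 0.0215 in positive cells and 0.788 and 0.121 in negative cells, so that again 1 positive library was highest, by 4.22-fold, and the other lowest. The log2 ratio in the authors' deposited table was 0.64 (p = 0.726).

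Gp5, a further gene of this receptor that was not among the 9, had 2553 and 62 reads in positive cells, against 0 and 93 reads in negative cells. Its log2 ratio in the authors' deposited table was 5.30 (p = 0.00498, FDR = 1.00), and the first library was 31.6-fold above the next. The proportions among the receptor's genes were not fixed. There were 0.381 and 0.237 Gp9 reads for each Gp1bb read in positive cells, against 0.386 and 3.95 in negative cells of 17.0 and 74.0 M reads. Gp1ba reads for each Gp1bb read numbered 0.0476 and 0.00968 in positive cells and 0.396 and 0.593 in negative cells.

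Gp6 (ENSMUSG00000078810.4, chromosome 7, 4363965 to 4397744, minus strand, mm10), the collagen receptor, was read in 1 library. It had 823 and 0 reads in the positive libraries of 41.6 and 32.0 M reads, against 0 and 0 reads in the negative ones. A count of 0 allows up to 0.0939 CPM in the other positive library, and up to 0.177 and 0.0405 in the negative libraries of 17.0 and 74.0 M reads, for counting error alone. Set against a floor of 3 reads per library, the first library (19.8 CPM) was at least 112-fold higher than any other. In the authors' deposited table the p was 0.345 and the log2 ratio 1.44, a ratio that depends on the offset of the scale. Fcer1g, whose product is the signalling partner of glycoprotein VI and is also found in mast cells and macrophages, was not resolved, with 16.6 to 87.9 RPKM in positive cells and 19.5 to 230 RPKM in negative cells over both readings.

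Itga2b and Itgb3, whose products form the fibrinogen receptor, did not follow each other. Itga2b (ENSMUSG00000034664.13, chromosome 11, 102453297 to 102470122, minus strand, mm10) encodes alpha IIb, which is largely restricted to the megakaryocyte lineage. It had 8.22 and 0.802 RPKM in positive cells, from 5752 and 431 reads, against 1.25 and 0.836 RPKM in negative cells, from 358 and 1041 reads. The first library was 6.56-fold above the next. The remaining positive one was lowest, but after rescaling it lay between the negative ones (0.841 RPKM, against 1.32 and 0.666 RPKM). The authors' deposited log2 ratio was 1.30 (p = 0.385).

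Itgb3 (ENSMUSG00000020689.4, chromosome 11, 104608000 to 104670476, plus strand, mm10) encodes beta 3, which also pairs with the alpha V chain in osteoclasts and vascular cells. Its reads numbered 2022 and 533 in positive cells and 418 and 2631 in negative cells, or 0.778 and 0.267 RPKM against 0.394 and 0.569 RPKM (17.0 and 74.0 M reads). The positive library of 41.6 M reads was highest by 1.37-fold and held 38.7% of the summed CPM. This was the 1 member with a lower deposited mean in positive cells, at a log2 ratio of -0.23 (p = 0.967 in the authors' deposited table), which lies above the -0.39 of genes without reads. With the second division by depth undone the ratio was 0.10, so the sign depends on the scale. Itga2b reads for each Itgb3 read were 2.84 and 0.809 in positive cells, against 0.856 and 0.396 in negative cells.

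Ppbp and Pf4 encode chemokines that platelets store in granules. Ppbp (ENSMUSG00000029372.7, chromosome 5, 90768518 to 90770063, plus strand, mm10) encodes pro-platelet basic protein, the precursor of the neutrophil attractant CXCL7. It had 39313 and 57 reads in the positive libraries of 41.6 and 32.0 M reads, against 186 and 65 reads in the negative libraries of 17.0 and 74.0 M reads. In RPKM these were 611 and 1.15 in positive cells and 7.09 and 0.568 in negative cells. One library was 86.2-fold above the next and held 98.6% of the summed CPM, while the other positive value fell between the negative ones. The authors' deposited means gave the largest log2 ratio of the 9, 5.09 (p = 0.0146, FDR = 1.00).

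Pf4 (ENSMUSG00000029373.7, chromosome 5, 90772435 to 90773383, plus strand, mm10) encodes platelet factor 4, also called CXCL4, and starts 2371 bases beyond the end of Ppbp. Its negative libraries were resolved at 25.7 and 4.19 RPKM, from 414 and 294 reads. In positive cells it had either 629 RPKM at 41.6 M reads and 41.4 RPKM at 32.0 M reads (24837.08 and 1256.01 reads), or 54.0 and 483 RPKM in the same order (2130.56 and 14649.5 reads). Counts of the first reading lay nearer to whole reads, but not both within the tolerance set, so Pf4 was left unresolved. Under the first reading it shared its high library with the other 8 members, and under the second it did not. Under either, the positive libraries differed by 15.2-fold or 8.95-fold, and the lower positive value was 1.61-fold or 2.10-fold above the higher negative one. Pf4 and Gp1bb were therefore the 2 of 9 members whose positive libraries both lay above both negative ones, a separation seen in 19.4% of resolved genes. The log2 ratio of Pf4 in the authors' deposited table was 3.38 (p = 0.0106, FDR = 1.00). Ppbp reads for each Pf4 read were 1.58 and 0.0454 under the first reading, or 18.5 and 0.00389 under the second, in positive cells, against 0.449 and 0.221 in negative cells.

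Treml1 (ENSMUSG00000023993.6, chromosome 17, 48359916 to 48367174, plus strand, mm10) encodes TLT-1, a receptor stored in granules and exposed when platelets are activated. Its counts were 2035 and 6 reads in positive cells, against 0 and 20 reads in negative cells of 17.0 and 74.0 M reads. This 181-fold gap between the highest and the next library was the largest ratio among the members with reads in another library, and it rests on 20 reads in that library. The levels were 6.74 and 0.0259 RPKM in positive cells and 0 and 0.0372 RPKM in negative cells. Treml1 had a log2 ratio of 4.44 in the authors' deposited table (p = 0.0386, FDR = 1.00).

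Levels of different genes were compared per kilobase of annotated exon, since spans differ in their intron content. In the positive library of 41.6 M reads, Ppbp stood at 873 RPKM per exon kilobase, followed by Gp1bb at 97.5, Gp9 at 88.1, Treml1 at 34.9, Itga2b at 25.4, Itgb3 at 8.24, Gp1ba at 3.56 and Gp6 at 3.35. Pf4 stood at 828 or 71.0, according to the reading. In the negative library of 74.0 M reads the order was another one, with Itgb3 at 6.02, Pf4 at 5.51, Gp9 at 2.65 and Itga2b at 2.58, and the other 5 at 0.811 or below. No order can be given an error within a library, since each library was measured once.

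**Figure D2:**
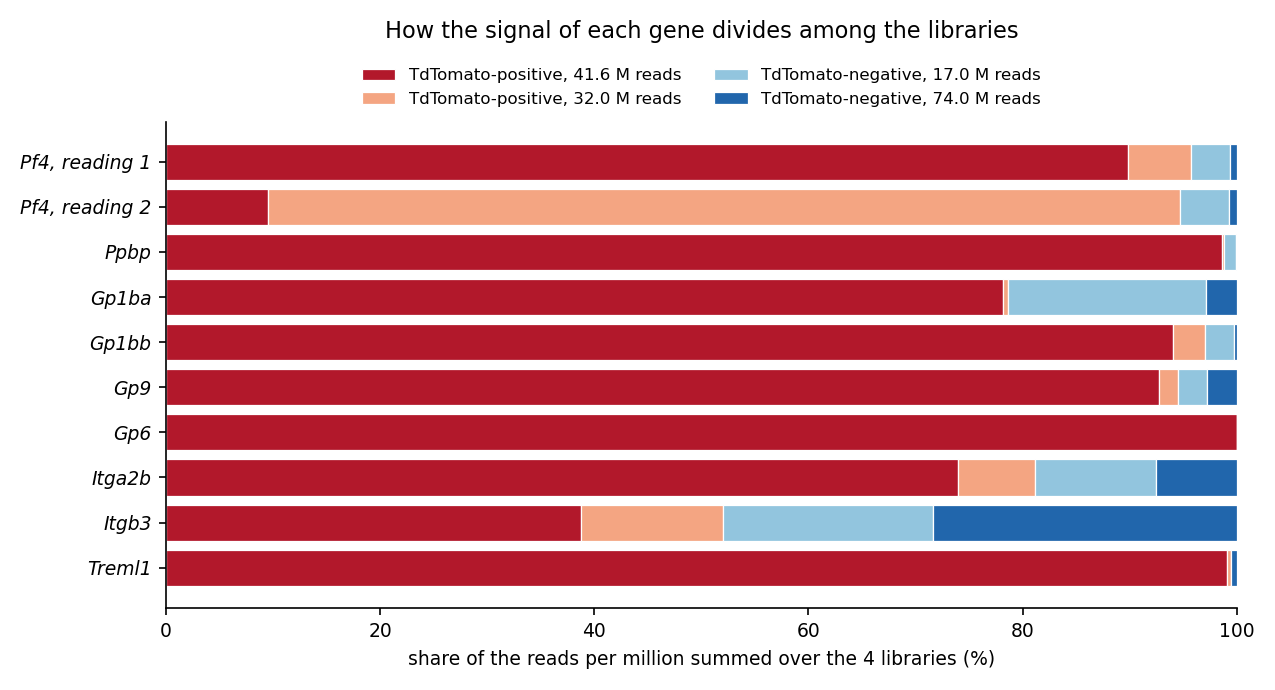
Share (%) of the summed CPM of each gene that each library contributed, positive libraries at the left of each bar; Pf4 has a bar for each of its 2 readings. The positive library of 41.6 M reads contributed 74.0% or more for 7 genes (Itga2b the lowest of these), and 38.7% for Itgb3.

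The deposited table has a column of the highest library value, which does not name the library. This value made up 96.9% of the summed signal of Ppbp, 93.4% for Treml1, 89.5% for Gp1bb, 89.1% for Gp9 and 84.0% for Pf4. It made up 62.4% for Itga2b, 61.4% for Gp6, 58.2% for Gp1ba and 41.2% for Itgb3, on a scale whose offset adds signal to every library and which raises shallow libraries. In the solved values the highest library on that scale was a positive one for 8 of the 9 genes, and the negative one of 17.0 M reads for Itgb3. Among the 7 members that were resolved and had the minimum reads, the positive library of 41.6 M reads was highest in 7, against 19.8% of such genes in the whole table. It exceeded every other library by more than 3-fold in 6 (2.55% of such genes) and by more than 10-fold in 4, Ppbp, Gp1bb, Gp9 and Treml1 (0.275%).

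Set against the negative libraries alone, the positive library of 32.0 M reads was below both for Gp1ba, Gp9, Itga2b and Itgb3, of which Itga2b moved to between them after rescaling. It lay between them for Ppbp and Treml1, above both for Gp1bb and, under either reading, for Pf4, and at 0 with them for Gp6. In limma on log2(RPKM + 1), leaving out the positive library of 41.6 M reads turned the difference to -0.73 for Ppbp, -0.47 for Gp1ba, -0.30 for Gp9, -0.17 for Itga2b and -0.22 for Itgb3, and left 0.90 for Gp1bb and 0.01 for Treml1. With all libraries these were 3.35 ± 3.44, 0.57 ± 0.89, 2.01 ± 1.87, 1.00 ± 0.96, 0.02 ± 0.22, 3.19 ± 1.96 and 1.47 ± 1.18 in the same order (SE, 2 libraries a group), with adjusted p in limma between 0.672 and 0.996. When instead the positive library of 32.0 M reads was dropped, they reached 7.43 for Ppbp, 5.48 for Gp1bb and 4.31 for Gp9, with 0 genes past the threshold. That fit assumes that a lone library varies as the negative ones do.

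**Figure D3:**
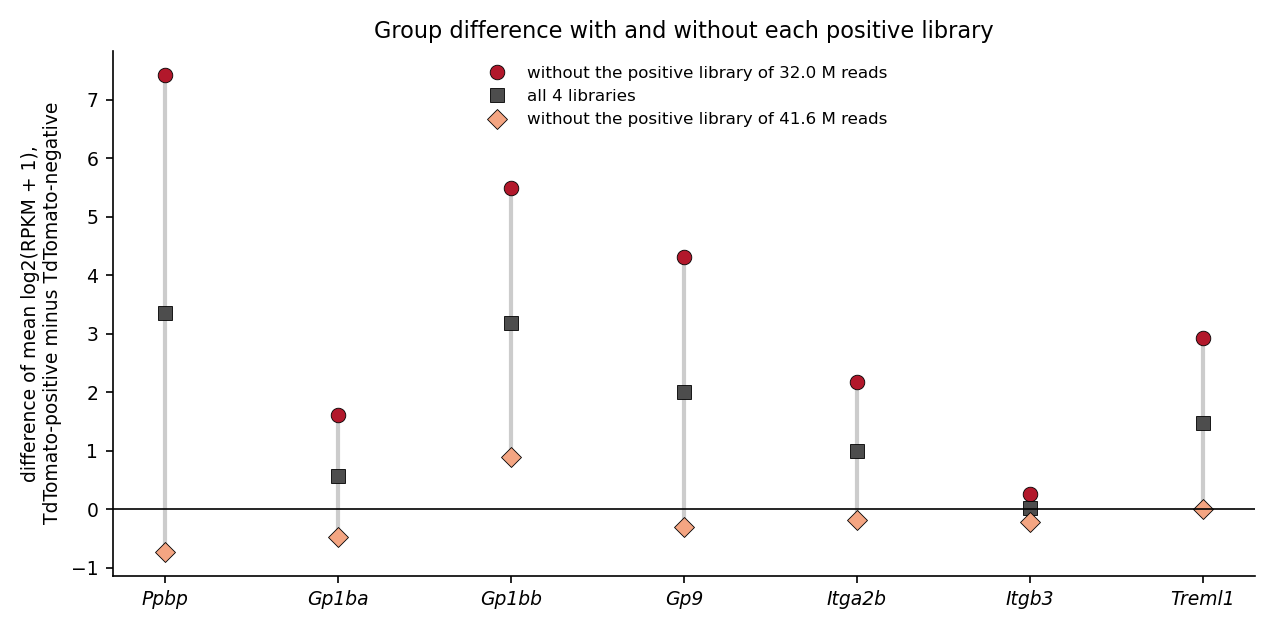
Difference of the mean log2(RPKM + 1), positive minus negative cells, for 7 resolved genes with the minimum reads, from all 4 libraries (squares), leaving out the positive library of 32.0 M reads (circles) or that of 41.6 M reads (diamonds). The diamonds lie at or below 0.01 for every gene but Gp1bb, which stays at 0.90.

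Among all genes with the minimum reads, 35.9% had a higher mean in positive cells, with a median log2 ratio of -0.26. Equal levels give -0.39 on this scale, so counts by mean lean towards lower. Other genes of platelets were counted on 4 lists. The first held 16 further surface receptors, of which 0 passed the authors' FDR and 3 were higher at an unadjusted p below 0.05. Of these receptors 11 had a higher and 5 a lower mean in positive cells, with a median log2 ratio of 0.59. The authors' log difference was higher for 13 of them and lower for 3. Of 11 that were resolved with the minimum reads, 9 were highest in the positive library of 41.6 M reads, 6 by more than 3-fold and 4 by more than 10-fold. Clec1b, the receptor CLEC-2 for podoplanin, had 4054 and 35 reads in positive cells, against 18 and 30.2 reads in negative cells (log2 ratio 3.98, p = 0.0389 in the authors' deposited table). F2rl3, the thrombin receptor PAR4, had 536 and 17 reads against 2 and 69. The 2 receptors with the highest levels, the tetraspanins Cd63 and Cd9, are made by many cell types, and neither was resolved. Over both readings Cd63 had 125 to 266 RPKM in positive cells and 8.59 to 343 RPKM in negative cells, and Cd9 had 9.90 to 29.2 RPKM in positive cells and 2.03 to 41.6 RPKM in negative cells, so that whether the groups overlap depends on the reading.

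Of 18 genes of granule cargo and secretion, 5 had a higher and 13 a lower mean in positive cells, with a median log2 ratio of -0.56, and 0 passed the FDR. The authors' log difference was higher for 7 and lower for 11. At an unadjusted p below 0.05, 1 was higher and 1 was lower. The higher one was Gng11, a G protein gamma subunit, with 2136 and 2455 reads in positive cells, against 680 and 58 reads in negative cells (log2 ratio 0.61, p = 0.0320 in the authors' deposited table), and the lower one was Stx11. The positive library of 41.6 M reads was highest for 5 of 11 resolved genes and exceeded the others by more than 3-fold for 1. Thbs1, the matricellular protein thrombospondin 1, had 21.5 to 52.5 RPKM in positive cells and 52.0 to 342 RPKM in negative cells over both readings. Srgn, the granule proteoglycan serglycin of many blood cells, ranged over 2.16 to 24.8 RPKM in positive cells and 5.78 to 59.6 RPKM in negative cells. Vamp8, a membrane fusion protein of granules, ranged over 12.3 to 28.4 RPKM in positive cells and 3.70 to 47.5 RPKM in negative cells. Stx11, a syntaxin that acts in the same step, had 2.85 and 0.422 RPKM against 5.70 and 12.9 RPKM, with a log2 ratio of -2.57 and an unadjusted p of 0.0463 in the authors' deposited table. Nbeal2, needed for alpha granules, had 0.581 and 0.202 RPKM against 1.21 and 3.76 RPKM.

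Of 20 genes of signalling and integrin activation, 3 had a higher and 17 a lower mean in positive cells (median log2 ratio -0.89), with 0 past the FDR and 0 at an unadjusted p below 0.05. The authors' log difference was higher for 5 and lower for 15. The positive library of 41.6 M reads was highest for 4 of 12 resolved ones. Alox12, the platelet 12-lipoxygenase, was the 1 gene of this list more than 10-fold above every other library there, with 3925 and 136 reads in positive cells, against 112 and 13 reads in negative cells. Btk, a kinase shared with B cells and myeloid cells, had 0.297 and 0.0304 RPKM in positive cells, compared with 0.309 and 1.62 RPKM for negative cells. Syk, the kinase downstream of glycoprotein VI, was not resolved, with 0.392 to 0.985 RPKM in positive cells and 1.22 to 7.06 RPKM in negative cells. Tln1, the integrin-binding talin, ranged over 3.01 to 5.68 RPKM in positive cells and 4.78 to 17.7 RPKM in negative cells. Rap1b, the GTPase that switches on the integrin, had 11.9 and 5.87 RPKM against 9.95 and 15.3 RPKM.

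Of 17 transcription factor and cytoskeleton genes, 4 had a higher and 13 a lower mean in positive cells (median log2 ratio -0.78), with 0 past the FDR and 0 at an unadjusted p below 0.05. The authors' log difference was higher for 5 and lower for 12. The positive library of 41.6 M reads was highest for 5 of 12 resolved ones. Tubb1, the beta-tubulin of the platelet rim, was the 1 gene of this list more than 10-fold above every other library there, with 567 and 0 reads in positive cells, against 13 and 18 reads in negative cells. Gata2, a factor of progenitors and mast cells as well, had 0.591 and 0.369 RPKM in positive cells and 2.79 and 1.65 RPKM in negative cells. Myh9, the non-muscle myosin mutated in large-platelet disorders of man, had 1.04 and 1.15 RPKM against 1.97 and 5.97 RPKM. Nfe2, a late megakaryocyte and erythroid factor, had 2.37 to 14.2 RPKM in positive cells and 6.09 to 37.0 RPKM in negative cells over both readings. Over both readings too, Tuba4a, an alpha-tubulin, had 6.71 to 85.2 RPKM in positive cells and 11.1 to 104 RPKM in negative cells, and Flna, the actin crosslinker filamin A that also binds glycoprotein Ib, had 9.50 to 12.6 RPKM in positive cells and 11.5 to 76.7 RPKM in negative cells.

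**Figure D4:**
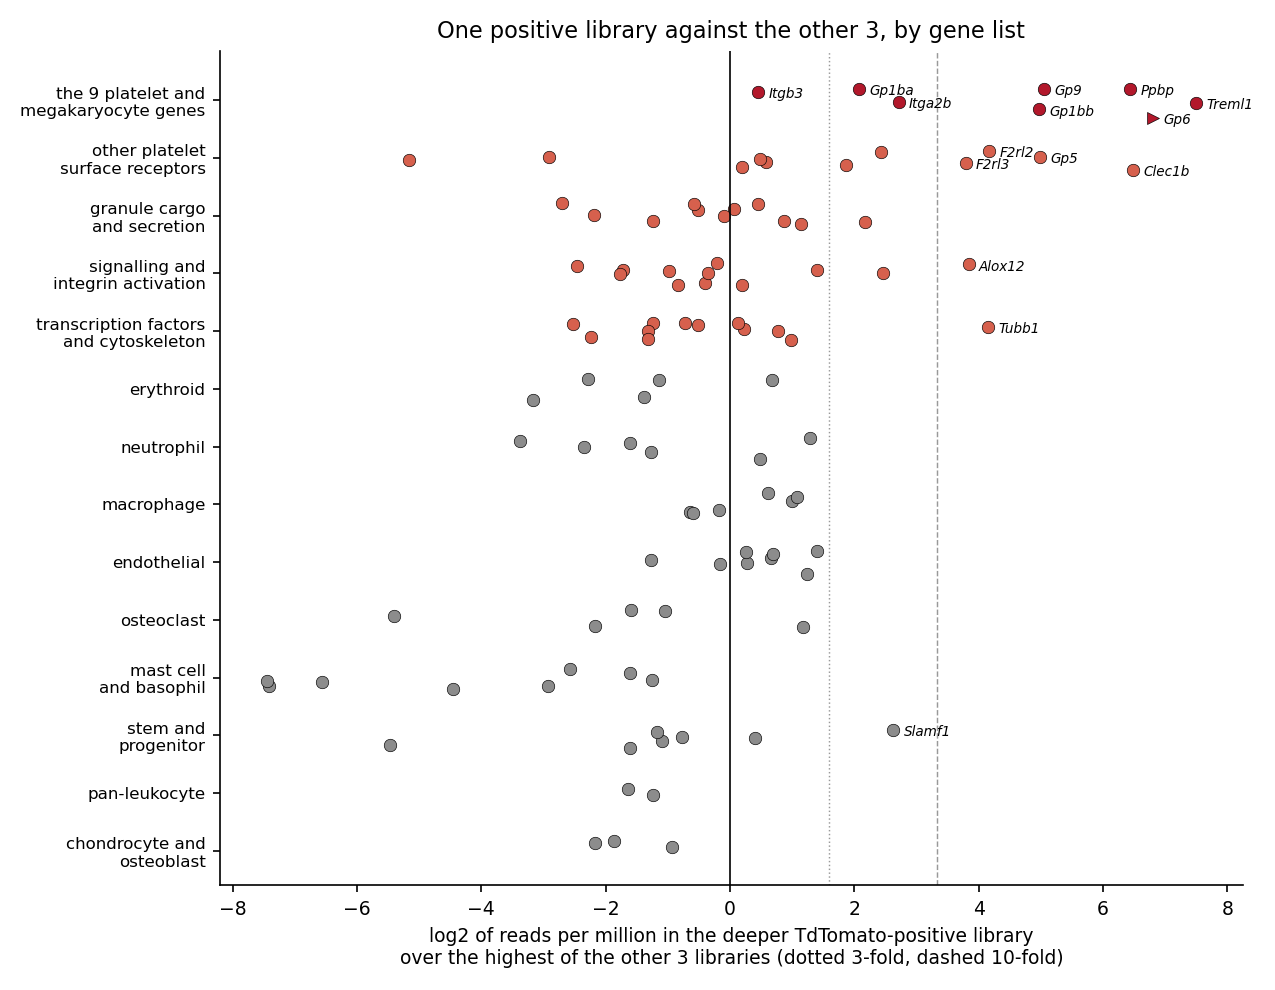
Log2 of CPM in the TdTomato-positive library of 41.6 M reads over the highest of the other 3 libraries, for resolved genes with the minimum reads on each list; the triangle is Gp6, a lower bound. Of the 9 genes 8 are shown, Pf4 being unresolved, and all 8 lie right of 0, as do 9 of 11 other receptors; of the 9 lists of other cells (grey) 1 point passes the 3-fold line, Slamf1 of the stem and progenitor list at 6.17-fold.

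All 11 erythroid genes measured had a lower mean in positive cells, summing to 9014 to 41807 CPM in positive libraries and 12934 to 168402 in negative ones over both readings, and no marker of the erythroid, neutrophil, macrophage, endothelial or mast cell lists was at 0 in all 4 libraries. Of 11 neutrophil genes 10 were lower, at 7734 to 34622 CPM in positive libraries and 18649.5 to 93389 in negative ones. Macrophage genes (6 of 10 higher) summed to 801 to 1829 in positive libraries and 312 to 670 in negative ones. For the 8 endothelial genes, 4 of them with a higher mean, all resolved, the sums were 340 and 171 CPM in positive cells, against 224 and 52.1 in negative cells, and 6 of 8 were highest in the positive library of 41.6 M reads, none by 3-fold. By the authors' difference on the natural log scale, 9 of 10 macrophage genes and 8 of 8 endothelial genes were higher. That difference was higher for 4 of 9 stem and progenitor genes, and for 0 erythroid, neutrophil, mast cell and basophil, or pan-leukocyte genes. All 9 genes of mast cells and basophils were lower, at 148 and 11.9 in positive cells, against 466 and 294 in negative cells, with Cpa3, Mcpt4, Cma1, Tpsb2 and Ms4a2 at 0 reads in the positive library of 32.0 M reads. Of 9 stem and progenitor genes 2 were higher, at 176 to 650 CPM in positive libraries and 149 to 1601 in negative ones, and Slamf1 had 312 and 34 reads in positive cells, against 3 and 90 reads in negative cells. The 5 pan-leukocyte genes were all lower, at 383 to 1885 CPM in positive libraries and 1237 to 6213 in negative ones. Of 10 osteoclast genes, Oscar was at 0 in all libraries and Dcstamp in the positive library of 41.6 M reads. The part of these cells in the levels of the 9 genes was not tested.

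By distance of the profile over the 4 libraries (root mean square difference of centred log2(RPKM + 0.1) from the mean of the 8 resolved members), the nearest of 8060 other resolved genes that reached 100 reads in 2 or more libraries were F2rl2, Alox12, Aif1, Ccl4 and Nrgn. F2rl2, the thrombin receptor PAR3, was closest at a distance of 0.43, with 1411 and 16 reads in positive cells, against 32 and 116 reads in negative cells. The others followed at 0.63, 0.73, 0.78 and 0.84. The members themselves lay between 0.49 for Gp9 and 1.93 for Ppbp. All of the nearest genes were closer to the mean profile than Gp1bb (1.23), Itgb3 (1.65) and Ppbp. Nrgn was farther than the remaining resolved members, of which Gp1ba was the farthest (0.82). Ccl4, a chemokine of activated leukocytes, had 311 and 20.6 RPKM in positive cells, compared with 47.9 and 48.2 RPKM in negative cells. The 4 libraries are few points for a likeness, and the value describes these libraries only.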

How the data were processed

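RNA of sorted TdTomato-positive and TdTomato-negative periosteal cells was sequenced as paired reads of 75 nucleotides from low-input libraries, per the labels' protocols. STAR, Partek and the mm10 build are named in the submitters' processing notes; which versions were run is not given in the sources used here. In the labels' notes no counting method is named. The authors' deposited table holds 47643 genes and 29 columns computed with lognormal models that use shrinkage, as the file headers say. Per the file headers these are group means of a normalized signal, the highest value and the sum over libraries as a score, the difference on the natural log scale, a p-value with a step-up FDR, a signed fold change (a score as well) and the ratio of the means. The authors' p-values are two-sided and were used as the main test, at an FDR of 0.05.

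The log difference, the highest value and both means fixed the 4 library values of each gene, with exactly 1 solution for all 47643. They matched RPKM over the genomic span to which 0.1 had been added before a second division by depth and by span. Group means of the deposited signal therefore weigh a shallow library more than a deep one. Scale, offset and depths (17.0 to 74.0 M reads) were inferred and are stated in no header. The second division was undone for all reads and RPKM given here. The Akaike values of the table, not used for the solution, ran from -88.7 to 73.3 and stayed between 24.5 and 25.8 after subtraction of 2 times the sum of the natural logs of the 4 values. Values of a group were assigned to libraries by whole reads (a tolerance of 0.01 reads plus 1e-07 times the count, at most 0.05, or of 0.002 where only 1 value was whole), or by leaving out an assignment with reads below 0. Of 17117 genes that reached 10 reads in 2 or more libraries, 11649 (68.1%) were resolved. The fits took the assignment with the smaller difference for the rest, which puts the high value of Pf4 at 32.0 M reads. For Pf4 this is the reading whose counts lay farther from whole reads. Floors are 3 reads and cover counting error only, since the reads carry no molecular identifiers.

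Limma 3.58.1 in R 4.3.3 was fitted to log2(RPKM + 1) over all genes with the minimum reads, with Benjamini-Hochberg adjustment. Other steps used Python 3.11.15, numpy 2.4.6, pandas 2.3.3 and matplotlib 3.10.9. Solution and fit were tested on simulated data. The changes simulated for the fit were shared by both positive libraries. They do not show how the fit behaves where these libraries differ as they do here. Exon lengths come from the GENCODE annotation of GRCm38, and promoter sequences from RefSeq GRCm38.p6. The 9 genes and all lists were chosen with earlier results of these data known. All 9 genes are named. Genes named from the other platelet lists are those past the FDR, up to 3 with the highest mean RPKM and up to 3 with the largest absolute log2 ratio. Outside this rule, Gng11 is named for its unadjusted p and F2rl2 for the likeness of its profile. Alternatives were other offsets, rescaling, no minimum of reads, the other assignment, replicate blocks and leaving out each library.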

Additional observations from a re-analysis of the deposited data

How the results depend on the processing

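The count of members with a higher mean in positive cells, 8 from the deposited means, was 9 on recovered RPKM under each offset (0, 0.01, 0.1 and 1) and after rescaling, and 3 to 9 when 1 library was left out, the 3 being without the positive library of 41.6 M reads. The count with a lower mean, 1 from the deposited means, was 0 under those offsets and after rescaling, and 0 to 6 when 1 library was left out. Over the whole table the authors' FDR called 3 genes higher and 0 lower. Limma called 0 higher and 0 lower with log2(RPKM + 1), with log2(RPKM + 0.1), with the other assignment, on resolved genes only, under both replicate blocks and without any 1 library; without the minimum of reads it called 2 higher and 1 lower. At an unadjusted p below 0.05 limma had 1623 genes with all libraries, 1808 without that minimum, 1327 with log2(RPKM + 0.1), 641 with the other assignment, 821 among resolved genes, 2510 and 1204 under the replicate blocks (41.6 with 74.0 M reads, and with 17.0 M reads), and 1036 to 2361 when 1 library was left out. Members among them numbered 0 with all libraries and 1, Pf4, under the block of 41.6 with 74.0 M reads. For fits with 1 library left out no such count is given, since the spread then comes from the other group alone. In limma, leaving out 1 of the libraries moved the difference over -0.73 to 7.43 for Ppbp, -0.47 to 1.61 for Gp1ba, -0.30 to 4.31 for Gp9, -0.17 to 2.18 for Itga2b and -0.22 to 0.27 for Itgb3. Without the positive library of 41.6 M reads these 5 were reversed. Itgb3 was -0.06 when the negative library of 17.0 M reads was left out. With log2(RPKM + 0.1), Itgb3 was -0.019. Rescaling to a median log2 ratio of 0 moved the negative library of 74.0 M reads by 0.33 and the others by 0.08 or less, kept the same highest library for the 8 resolved members, and left 2 members without overlap. The recovered values carry no collection number, so both possible pairings of positive with negative libraries were fitted as a replicate block, with 0 genes past the threshold higher and 0 lower in each. Pf4 had an adjusted p of 0.290 in limma in the replicate block that pairs the libraries of 41.6 and 74.0 M reads, and of 0.782 with those of 41.6 and 17.0 M reads paired. Both block fits used the reading with the high value of Pf4 at 32.0 M reads. The other reading, whose counts lay nearer to whole reads, was not fitted with a block, so the small p may depend on the reading. The rescaling of overlaps, the fit on resolved genes and the offset of 0.1 without the second division were chosen after seeing the data. Depth limits Gp6, with 0 reads in 3 libraries, and Gp1ba and Treml1, which rest on 2 and 6 reads in the positive library of 32.0 M reads.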

Other observations

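Among resolved genes with at least 200 reads in the positive library of 41.6 M reads, 23 stood there more than 10-fold above every other library, a listing made after the values were seen. Of these, 4 were among the 9 genes (Treml1, Ppbp, Gp9 and Gp1bb) and 6 were on the other platelet lists (Clec1b, Gp5, F2rl2, Tubb1, Alox12 and F2rl3). The remaining 13 were on no list and included genes known from other cells. Slc6a4, the serotonin transporter of platelets and neurons, had 285 and 10 reads in positive cells, against 10 and 5 reads in negative cells. Panx3, a channel of cartilage and bone cells, had 1141 and 80 reads in positive cells and 0 and 0 in negative cells. Matn3, a cartilage matrix protein, had 4036 and 291 reads in positive cells, against 31 and 0 in negative cells. Mepe, a matrix protein of osteocytes, had 535 and 23 reads in positive cells and 0 and 0 in negative cells. Nts, the neuropeptide neurotensin, had 2595 and 37 reads in positive cells, against 6 and 22 in negative cells. These genes were picked for their excess in that library. Of the skeletal genes used as a check of the sort, the 3 resolved ones were highest in the other positive library, with 1038 and 2897 reads of Sox9, 2013 and 2963 reads of Acan and 15547 and 54056 reads of Comp in the positive libraries of 41.6 and 32.0 M reads, against at most 1983 reads in a negative library.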
